A study of Mus musculus with 8 samples.

Results

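The cell surface receptors through which gut hormones, fatty acids and nerve transmitters act on the islet were compared between islets of mice on high fat diet (HF) and on regular chow (NC). The receptors were chosen by name and not by a rule on their values, although earlier results of these data were known. They are Glp1r, Gipr, Gcgr, Ffar1, Gpr119, Sstr3, Adra2a, Chrm3, Vipr1 and Adcyap1r1. Of these 10 genes, 7 have a probe set annotated to them alone, out of 18194 genes with such a probe set on the array. They have 11 probe sets among 45101, and 9 of the 11, at least 1 for each of the 7 genes, passed the filter on low values. Ffar1, the receptor of long-chain fatty acids, Gpr119, a receptor of fatty acid ethanolamides and monoacylglycerols, and Adra2a, the receptor through which noradrenaline inhibits insulin release, are not analysed here.

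Islet RNA of 4 HF samples (replicates 21, 22, 23 and 24) and of 4 NC samples (replicates 1, 2, 4 and 5) was hybridised to mouse expression arrays, 1 array per sample. The mice were male C57BL/6J, a substrain with a natural mutation of Nnt that both diets share, weaned at 4 weeks of age to a diet with 45 kcal% fat (HF) or to chow with 4 kcal% fat (NC). The labels give 12 weeks on diet and the methods 14 weeks. Islets were freed with collagenase, separated on a density gradient and picked by hand, and the islets of 2 mice were pooled for a sample, so n counts pools and not mice.

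All of these receptors span the membrane 7 times and signal through G proteins. In β cells, receptors that couple mainly to Gs, such as those of GLP-1, GIP, glucagon, VIP and PACAP, raise cAMP and amplify insulin release when glucose is high. The muscarinic receptor M3 couples to Gq and raises calcium in response to acetylcholine from parasympathetic nerves. Somatostatin receptors and the α2A adrenergic receptor couple to Gi, lower cAMP and restrain secretion.

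None of the 9 retained probe sets of these receptors changed between HF and NC islets. To count as changed, a probe set needed an adjusted p under 0.05 and a difference of 1.5-fold or more (limma with Benjamini-Hochberg adjustment over all 25617 retained probe sets). By that rule 0 were higher and 0 lower, against 3.70% of all retained probe sets (0.644% higher and 3.06% lower). At an unadjusted limma p under 0.05, 4 of the 9 differed, 2 higher and 2 lower in HF islets, against 20.8% of all retained probe sets (10.1% higher and 10.8% lower). Of the 2 lower, 1, a probe set of Adcyap1r1, passed the filter on low values only through the NC samples. An unpaired test that the methods name for 2 groups in general, and not for the arrays, called with the same fold limit 0 higher and 1 lower (Adcyap1r1) at its unadjusted p, and 0 after adjustment. The median log2 fold change of the 9 was 0.05, and that of all retained probe sets was 0.02. For 8 of the 9 the 95% interval of the fold change lay within 1.5-fold in both directions, and for 1, a probe set of Adcyap1r1, it reached beyond. Smaller differences than 1.5-fold are within these intervals, and the absence of a call does not show that the levels were equal.

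**Figure D1:**
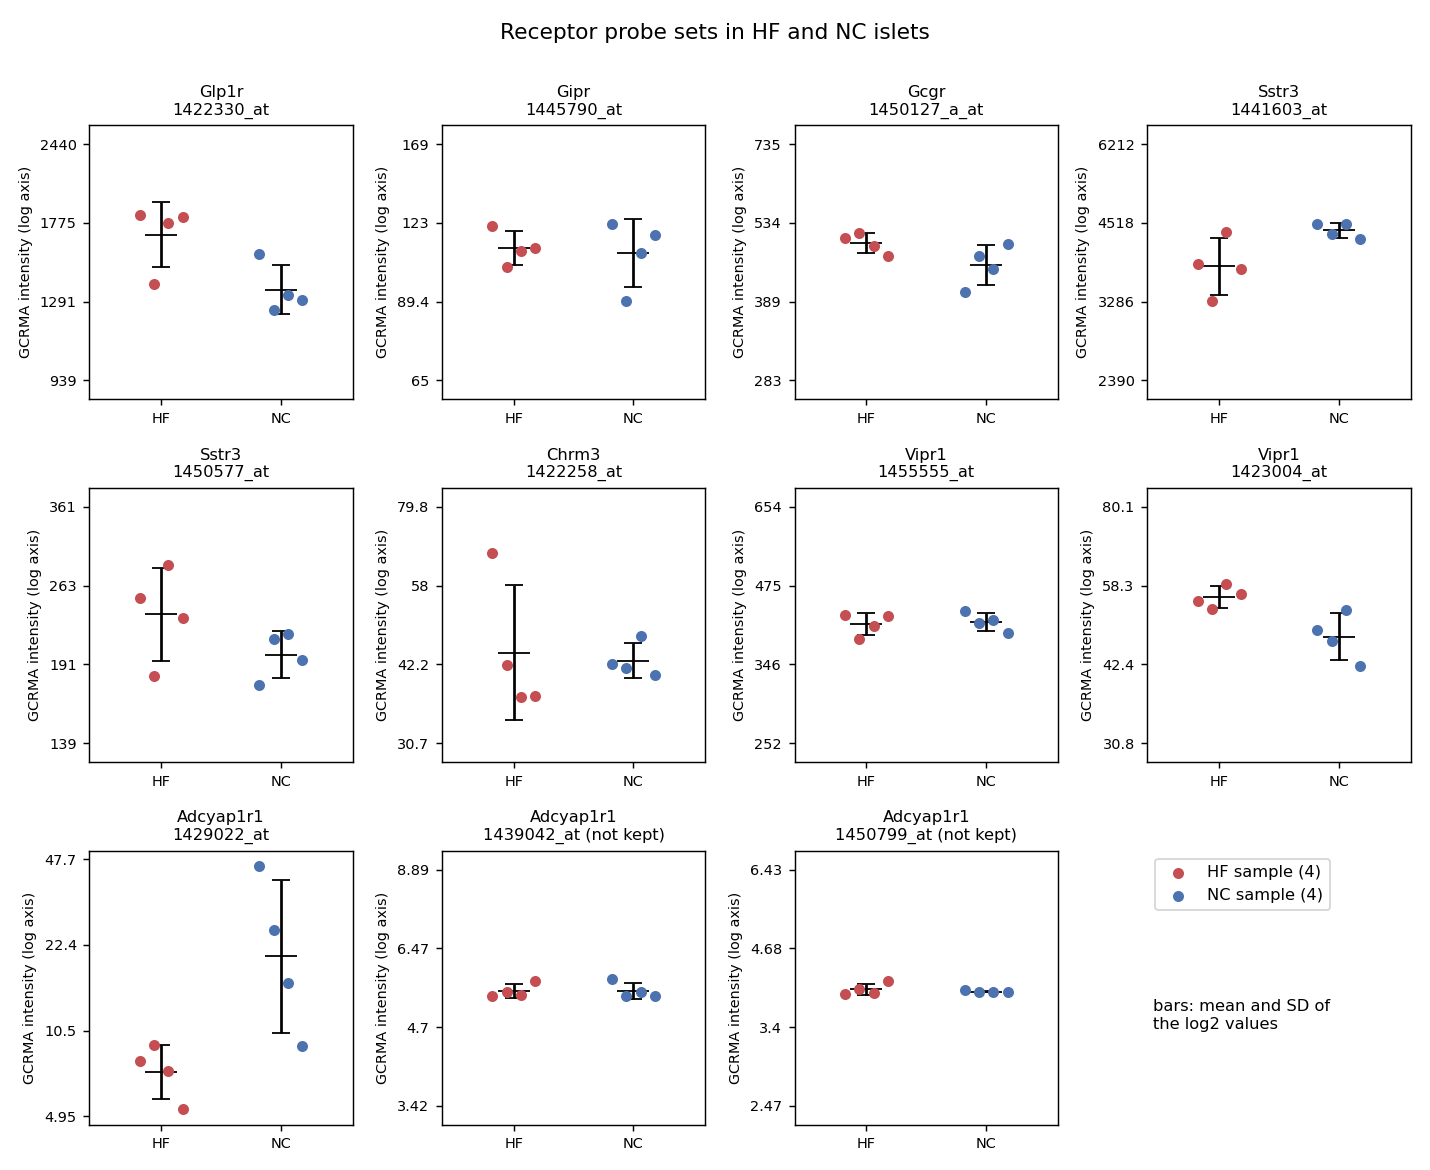
GCRMA intensity (log axis, scaled separately for each panel) of the 11 receptor probe sets in each HF sample (red) and NC sample (blue). Bars show the log2 mean and its SD, n = 4 per diet. The HF and NC samples do not overlap for Vipr1 1423004_at, and they overlap for the other 8 retained probe sets.

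**Figure D2:**
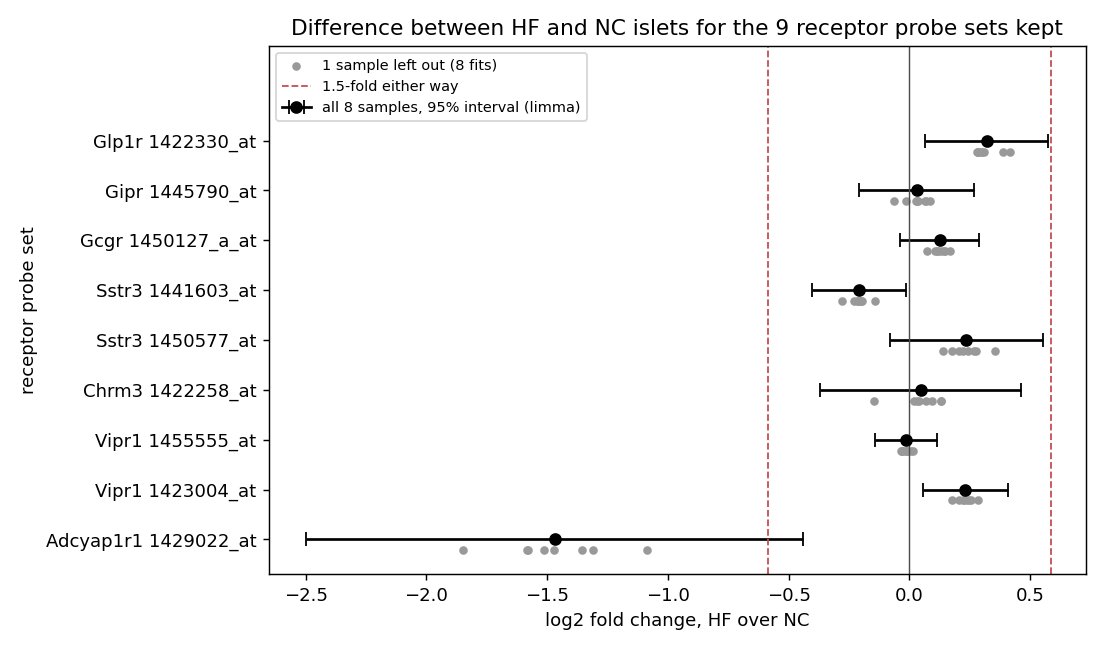
Log2 fold change of HF over NC islets for the 9 retained receptor probe sets (black, with the 95% interval from limma), with the estimates after leaving out each sample in turn (grey) and the 1.5-fold limits (dashed). The interval of Adcyap1r1 1429022_at, -2.50 to -0.44, is the one that crosses a 1.5-fold limit.

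As a check of the tissue, the 4 alpha cell markers summed to between 169891 and 181612 intensity units in HF samples and between 173559 and 176305 in NC samples. Gcg and Ttr make up most of that sum, and the other markers, Irx1 and Irx2, had log2 fold changes of -0.81 and -0.78 without overlap (limma adjusted p = 0.151 and 0.0574). The sum of 8 beta cell markers was 263796 to 276569 in HF samples and 249351 to 255257 in NC samples, 6.98% higher in HF without overlap. Ins2, Iapp and G6pc2 make up most of it. By the rule above 0 of the 8 changed, with log2 fold changes from -0.06 to 0.16. Markers of delta and PP cells summed to 82591 to 95187 in HF samples and 99522 to 101391 in NC samples. Acinar markers were also present, at 246834 to 291278 in HF samples and 229623 to 296332 in NC samples. Median intensities per array, over all probe sets, ranged from 13.03 to 13.81. In whole islets, fewer cells of a type and less RNA per cell cannot be told apart, and the part of cell composition in the receptor values was not tested.

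Of the receptors of the glucagon family, Glp1r (chr17:30901867-30936510, plus strand, GRCm38.p6) encodes the receptor of GLP-1, the gut hormone that amplifies glucose-stimulated insulin release. Its probe set 1422330_at read 1833, 1389, 1773 and 1818 in HF samples 21 to 24, against 1563, 1250, 1326 and 1300 in NC samples 1, 2, 4 and 5. Of the HF samples, 3 lay above every NC sample, while HF 22 lay below NC 1, so that the diets overlapped. The mean was 1703 ± 211 in HF and 1360 ± 139 in NC islets (SD, n = 4 each). HF exceeded NC by 0.32 on the log2 scale (standard error 0.11, 95% interval 0.07 to 0.58, a fold of 1.25), with an unadjusted p of 0.0198 and an adjusted p of 0.144 from limma. The exact two-sided permutation p over the 8 samples was 0.0571, where 0.0286 is the smallest that 4 against 4 allows. Without HF 22 the limma adjusted p was 0.0427 at a log2 fold change of 0.42, which is still under the fold limit of 0.585 on the log2 scale.

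Gipr (chromosome 7), the receptor of the other incretin, GIP, read 121, 103, 110 and 111 in HF samples 21 to 24, against 122, 89.8, 109 and 117 in NC samples 1, 2, 4 and 5. The HF samples lay inside the range of the NC samples. The log2 fold change was 0.03 (standard error 0.10, 95% interval -0.21 to 0.27, limma adjusted p = 0.919), and its sign depended on the scaling and on which samples were used. Glp1r and Gipr are the receptor genes for the incretins, and neither passed the test.

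Gcgr (chromosome 11), the glucagon receptor, through which alpha cells can act on neighbouring β cells, read 502, 513, 486 and 468 in HF samples 21 to 24, against 405, 469, 444 and 491 in NC samples 1, 2, 4 and 5. The diets overlapped, with NC 5 above the lower HF samples. On the log2 scale HF minus NC was 0.13 (standard error 0.07, 95% interval -0.04 to 0.29, limma adjusted p = 0.370).

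The messenger RNA of the ligands of these receptors that the islet makes was also read. Gcg, which encodes glucagon and GLP-1, had a mean of 83959 in HF and 83466 in NC islets, a log2 fold change of 0.01 (limma adjusted p = 0.956). Gip was below 8.82, the lowest value passing the filter, in all samples, with a mean of 4.34 in HF and 4.32 in NC islets, and it was not tested.

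Vipr1 (chromosome 9) encodes VPAC1, a receptor that binds both VIP and PACAP, the peptides of parasympathetic nerve endings. It has 2 retained probe sets. The probe set 1423004_at read 54.9, 53.0, 58.7 and 56.3 in HF samples 21 to 24, against 48.7, 46.6, 52.8 and 42.1 in NC samples 1, 2, 4 and 5. Each HF sample lay above each NC sample, although the lowest HF value exceeded the highest NC value by little. This was 1 of the 9 receptor probe sets with no overlap between the diets, against 14.7% of all retained probe sets (6.81% higher in HF). The log2 fold change was 0.23 (standard error 0.08, 95% interval 0.06 to 0.41), with a limma adjusted p of 0.130 and an exact permutation p of 0.0286.

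The other Vipr1 probe set, 1455555_at, read 422, 383, 405 and 420 in HF samples 21 to 24, against 430, 408, 413 and 393 in NC samples 1, 2, 4 and 5. These values overlapped, with a log2 fold change of -0.01 (standard error 0.06, 95% interval -0.14 to 0.11, limma adjusted p = 0.935). The 2 probe sets of the gene therefore did not give the same difference. Within each sample, the log2 value of 1423004_at minus that of 1455555_at was -2.87 ± 0.07 in HF and -3.12 ± 0.11 in NC islets (SD, n = 4 each), a difference of 0.25, or 0.21 to 0.30 with single samples left out. The diets did not overlap in it, as was the case for 10.9% of the 3298 genes with 2 retained probe sets. This comparison was made after the values had been seen and is given as a description, with no test.

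Adcyap1r1 (chr6:55451501-55501455, plus strand) encodes PAC1, the receptor selective for PACAP, and its probe set 1429022_at had the largest log2 fold change in size of the 9. This probe set read 8.01, 9.23, 7.35 and 5.27 in HF samples 21 to 24, against 44.8, 25.5, 16.0 and 9.19 in NC samples 1, 2, 4 and 5. The NC samples were widely spread, and the lowest of them, NC 5, lay just below the highest HF sample. The mean was 7.47 ± 1.66 in HF and 23.9 ± 15.5 in NC islets (SD, n = 4 each). The log2 fold change was -1.47 (standard error 0.45, 95% interval -2.50 to -0.44, a fold of 0.361), with an unadjusted p of 0.011 and an adjusted p of 0.104 from limma. The exact permutation p was 0.0571. The residual SD of this probe set was larger than that of 99.3% of the retained probe sets. With values under 8.82, the lowest level passing the filter, raised to that level, the log2 fold change was -1.18 (limma adjusted p = 0.159), so its size depends on values near that level. Leaving out NC 5, the lowest NC sample, gave -1.85 with a limma adjusted p of 0.0347, past both thresholds. Since the probe set was kept only through its high NC values, these p-values are given as a description and do not establish a change.

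Of the HF values of 1429022_at, 3 of 4 were under 8.82, so that this probe set passed the filter only through the NC samples, and the value without NC 5 is given for completeness and not as a change. The other 2 probe sets of Adcyap1r1, 1439042_at and 1450799_at, did not pass it and were not tested. They read 5.34 to 5.66 and 3.89 to 4.09 in HF samples, against 5.33 to 5.70 and 3.92 to 3.95 in NC samples, all under 8.82. The difference in Adcyap1r1 thus stands on 1 of its 3 probe sets.

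Sums of Schwann cell and fibroblast markers were lower in HF islets, as was the mean of Adcyap1r1. They were not alone in this. Sums of smooth muscle and pericyte, endothelial, macrophage, B and plasma, and delta and PP cell markers were also lower, each without overlap. Of the 4 delta and PP cell markers, however, 0 passed the test. Ppy and Sst make up most of their sum, with log2 fold changes of -0.25 (without overlap) and -0.09 (with overlap). The sum of 3 Schwann and glial markers, of which 2 fell, was 37.5 to 61.3 in HF samples and 168 to 232 in NC samples, without overlap. Most of the NC sum is Cdh19, at a mean of 13.2 in HF and 147 in NC islets, and 2 of its 4 HF values were under 8.82. The sum of 7 fibroblast and stellate markers, all of which fell, was 1517 to 3087 in HF samples and 8937 to 13836 in NC samples, also without overlap. The 5 nerve markers, of which 0 passed the test with the brightest probe set of each gene, summed to 8567 to 10870 in HF samples. In NC samples they summed to 9858 to 12221, with overlap. Most of that sum is Snap25, which endocrine cells also express, at a mean of 8866 in HF and 9462 in NC islets. Of the neuronal intermediate filament genes, Prph and Nefl, named after their values were seen, had log2 fold changes of -3.01 and -2.63 (limma adjusted p = 0.0508 and 0.0671). The diets overlapped in both, and 2 of the 4 HF values of Nefl were under 8.82. Nefl has 2 retained probe sets, and 1 of them, not the brighter one given here, passed the test. The part of these cells in the Adcyap1r1 values was not tested.

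Of the ligands of Vipr1 and Adcyap1r1, Vip fell in HF islets. Its probe set read 51.7, 31.4, 309 and 270 in HF samples 21 to 24, against 2706, 3391, 2192 and 1926 in NC samples 1, 2, 4 and 5. Every HF sample was far below every NC sample, with a fold change of -4.53 on the log2 scale (standard error 0.74, limma adjusted p = 0.0118). Adcyap1, which encodes PACAP, lay under 8.82 in all samples, with a mean of 7.35 in HF and 7.30 in NC islets, and was not tested.

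Sstr3 (chr15:78537014-78549365, minus strand) encodes a somatostatin receptor that in mouse islets is found on primary cilia. It too has 2 retained probe sets, and they pointed in opposite directions. The reference annotation holds 2 promoter windows for the gene, which start sites 2939 bases apart define, and they are shown because the 2 probe sets differed. Each window runs from 250 bases before to 50 bases after a start (RefSeq, GRCm38.p6, minus strand, 5′ to 3′), at chr15:78544296-78544595 and chr15:78541357-78541656. Both windows lie inside the span of the gene given above, so the upstream one is not at the 5′ end of that span. The words upstream and downstream only order these 2 windows. Capitals mark matches on either strand to CACGTG, the E-box, to TGACG, a core part of the cAMP response element, to CCAAT, the CCAAT box, and to TATAAA, the TATA box, which do not overlap in these windows.
Sstr3 upstream start: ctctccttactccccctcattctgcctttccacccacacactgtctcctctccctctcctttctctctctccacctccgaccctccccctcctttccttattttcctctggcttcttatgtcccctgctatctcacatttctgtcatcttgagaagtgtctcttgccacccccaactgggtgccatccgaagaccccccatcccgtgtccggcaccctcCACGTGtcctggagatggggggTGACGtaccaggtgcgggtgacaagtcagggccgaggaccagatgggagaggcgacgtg
Sstr3 downstream start: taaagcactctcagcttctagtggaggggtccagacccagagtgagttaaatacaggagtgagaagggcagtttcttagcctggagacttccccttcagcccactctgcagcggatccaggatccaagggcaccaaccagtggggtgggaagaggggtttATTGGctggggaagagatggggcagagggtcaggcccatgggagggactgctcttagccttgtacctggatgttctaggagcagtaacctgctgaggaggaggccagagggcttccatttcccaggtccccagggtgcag
The upstream window holds 1 CACGTG and 1 TGACG, and the downstream window holds 1 CCAAT, read on the opposite strand. Of 32851 promoter windows of the same length, 7.15% hold CACGTG, 20.8% TGACG, 37.4% CCAAT and 13.6% TATAAA. The upstream window holds 10 CG dinucleotides and the downstream window 1. Probe positions were not used here, so that neither probe set is assigned to a start.

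The Sstr3 probe set 1441603_at read 3822, 3300, 4362 and 3749 in HF samples 21 to 24, against 4493, 4314, 4500 and 4233 in NC samples 1, 2, 4 and 5. Of the HF samples, 3 lay below every NC sample, and HF 23 lay within the NC range. Its log2 fold change was -0.21 (standard error 0.08, 95% interval -0.40 to -0.02), with an unadjusted p of 0.0376 and an adjusted p of 0.206 from limma. The exact permutation p was 0.0857.

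The probe set 1450577_at read 250, 183, 286 and 230 in HF samples 21 to 24, against 176, 212, 216 and 194 in NC samples 1, 2, 4 and 5. Here 3 HF samples lay above every NC sample and HF 22 lay within the NC range. Its log2 fold change was 0.24 (standard error 0.14, 95% interval -0.08 to 0.55, limma adjusted p = 0.389).

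Within each sample, the log2 value of 1450577_at minus that of 1441603_at was -4.02 ± 0.11 in HF and -4.46 ± 0.15 in NC islets (SD, n = 4 each). The diets differed by 0.45 without overlap, and by 0.37 to 0.50 with single samples left out. This too is a description, since the opposite signs had been seen first. Such a difference between 2 probe sets did not overlap between the diets in 10.9% of the 3298 genes with 2 retained probe sets. Neither probe set of Sstr3 passed the test on its own. Sst, the hormone that Sstr3 binds, had a mean of 32252 in HF and 34303 in NC islets, a log2 fold change of -0.09 (limma adjusted p = 0.424).

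**Figure D3:**
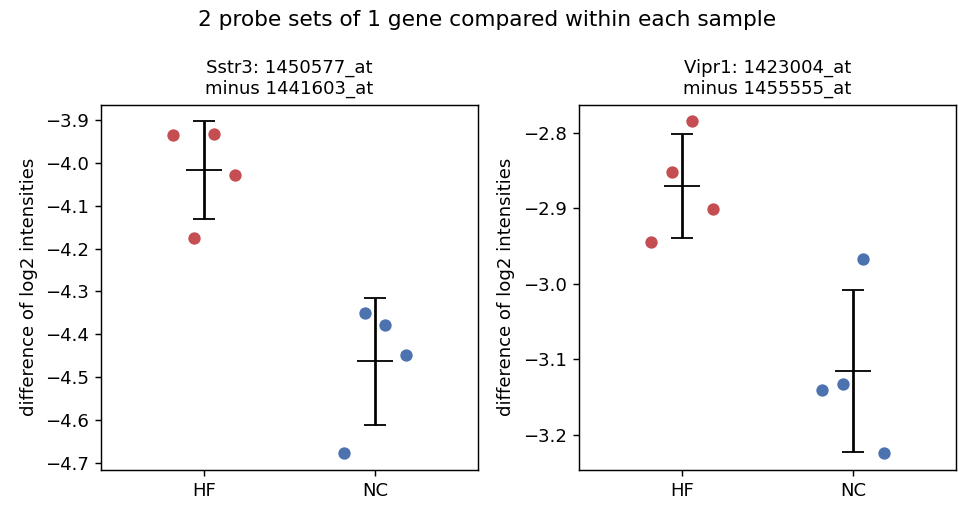
Difference of log2 intensities between the 2 probe sets of Sstr3 (left) and of Vipr1 (right) within each HF sample (red) and NC sample (blue), with mean and SD, n = 4 per diet. In both genes all 4 HF samples lie above all 4 NC samples. The vertical axes do not start at 0.

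Chrm3 (chromosome 13), the muscarinic M3 receptor of β cells, read 66.2, 42.1, 37.0 and 37.2 in HF samples 21 to 24, against 42.3, 41.6, 47.4 and 40.4 in NC samples 1, 2, 4 and 5. HF 21 stood above every other sample, and HF 23 and 24 stood below every NC sample. The mean was 45.6 ± 13.9 in HF and 42.9 ± 3.08 in NC islets (SD, n = 4 each). The log2 fold change was 0.05 (standard error 0.18, 95% interval -0.37 to 0.46, limma adjusted p = 0.930), and its sign turned when HF 21 was left out (-0.15).

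Across the 9 probe sets, HF 22 was the lowest HF sample in 6 and HF 21 the highest in 4. Among NC samples, NC 5 was the lowest in 5, and NC 1 and NC 4 were each the highest in 4. The largest standard error was that of Adcyap1r1 1429022_at, and the smallest that of Vipr1 1455555_at.

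Related genes were examined as 5 lists, with 1 probe set per gene, the one with the highest mean. The share of all 12299 genes that changed in this way was 4.73% (0.447% higher and 4.28% lower in HF), with a median log2 fold change of 0.00. No gene of the 5 lists was higher in HF by the rule and 8 were lower. In the order of the lists below, 13 of 23, 33 of 40, 17 of 18, 27 of 28 and 21 of 24 genes have a probe set annotated to them alone. The remaining listed genes have no values here. Fibroblast, Schwann, macrophage and endothelial marker sums were lower in HF islets without overlap, and their part in the values of these lists was not tested.

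Of 23 receptors of the same families, 3 were retained, of which 1 fell, with a median log2 fold change of -0.71. This was Sstr2, a Gi-coupled somatostatin receptor, which read 51.2, 46.3, 51.7 and 34.5 in HF samples 21 to 24, against 77.4, 125, 92.4 and 139 in NC samples 1, 2, 4 and 5. All HF samples lay below all NC samples, and the log2 fold change was -1.22 (standard error 0.21, limma adjusted p = 0.0147). The fatty acid receptors Ffar2, which responds to short-chain fatty acids, and Ffar4, which responds to long-chain fatty acids, did not pass. Ffar2 had a mean of 880 ± 80.3 in HF and 726 ± 67.2 in NC islets (log2 fold change 0.28). Ffar4 had 68.1 ± 16.2 in HF and 112 ± 27.0 in NC islets (log2 fold change -0.71, limma adjusted p = 0.106).

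Of 40 other islet receptors, 15 were retained and 1 fell, with a median of -0.03. Cnr1, the cannabinoid receptor CB1, had a mean of 156 ± 54.0 in HF and 462 ± 122 in NC islets, with no overlap (log2 fold change -1.60, standard error 0.30, limma adjusted p = 0.0197). Leaving out any one of HF 21, HF 24, NC 1, NC 2 or NC 4 ended that call (limma adjusted p = 0.0503 to 0.0578). Galr1, a galanin receptor, had a log2 fold change of -0.07 (limma adjusted p = 0.598), and Oxtr, the oxytocin receptor, had 0.46 (0.275). Casr, the calcium-sensing receptor, and Calcrl, which binds CGRP and adrenomedullin together with RAMP proteins, had an adjusted p under 0.05 but stayed under the fold limit, at 0.44 and -0.58.

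Of 18 ligand and transmitter genes, 11 were retained and 2 fell, Vip and Ache, with a median of 0.00. Ache, the enzyme that breaks down acetylcholine, had a mean of 53.7 ± 15.3 in HF and 114 ± 31.9 in NC islets (SD, n = 4 each, with a log2 fold change -1.09, standard error 0.25, limma adjusted p = 0.0413). Its call was lost without any one of HF 21, HF 22, HF 24, NC 1, NC 2 or NC 4 (limma adjusted p = 0.0639 to 0.115). Pcsk1, the convertase that processes proinsulin, had an adjusted p under 0.05 at a log2 fold change of 0.34, under the fold limit.

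Of 28 G protein subunits, 22 were retained and 2 fell, with a median of -0.07. Gnai1, a Gi subunit of the type through which inhibitory receptors lower cAMP, had a mean of 1308 ± 93.3 in HF and 2137 ± 261 in NC islets (log2 fold change -0.70, standard error 0.10, limma adjusted p = 0.00568). Of its 3 retained probe sets, 2 passed, and the third had -0.34. Gng11, a gamma subunit, had 344 ± 36.2 in HF and 566 ± 59.0 in NC islets, a log2 fold change of -0.72 (limma adjusted p = 0.00624). Gnas, the Gs subunit through which the incretin receptors raise cAMP, had a log2 fold change of -0.02 (limma adjusted p = 0.866). Gnai2, another Gi subunit, had an adjusted p under 0.05 at -0.39, under the fold limit.

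Of 24 receptor kinases, arrestins and effectors, 19 were retained and 2 fell, with a median of -0.18. Both are receptor activity-modifying proteins, which set the ligand preference of receptors such as Calcrl. Ramp2 had a mean of 412 ± 36.7 in HF and 647 ± 65.7 in NC islets (log2 fold change -0.65, limma adjusted p = 0.00679). Ramp3 had 253 ± 31.8 in HF and 399 ± 46.9 in NC islets (log2 fold change -0.66, limma adjusted p = 0.0176). Without HF 23 it was -0.56, under the fold limit, and without NC 2 its adjusted p was 0.0542. Grk3, a receptor kinase, had -0.09 (limma adjusted p = 0.697). The 7 endothelial markers, of which 3 fell, summed to 6903 to 7634 in HF samples and 8308 to 10560 in NC samples, without overlap, and their part in these values was not tested.

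**Figure D4:**
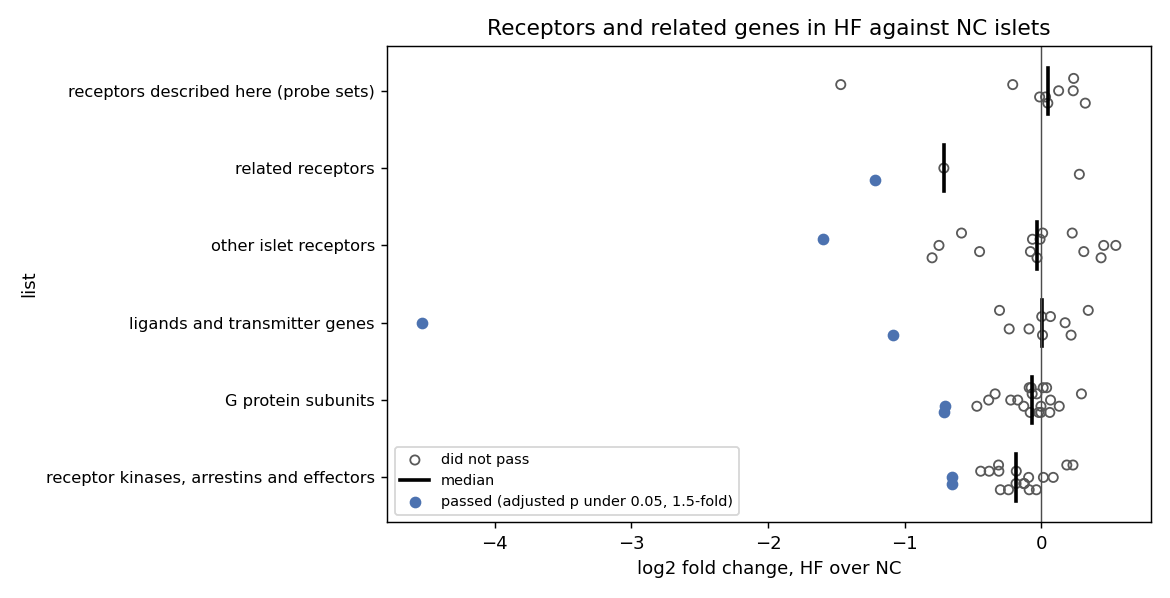
Log2 fold change of HF over NC islets for the 9 retained receptor probe sets (top row) and for the retained genes of the 5 related lists, 1 point per probe set. Filled points passed the test, open points did not, and the black lines are medians. All 8 filled points lie to the left of 0, and none is in the top row.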

How the data were processed

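Islets of 4 HF and 4 NC samples were hybridised to mouse 430 arrays, 1 per sample. The authors read the images into ArrayAssist Lite 3.4 and summarised probe sets with GCRMA, which corrects background and puts the arrays on a common scale. What they deposited are linear intensity values, from 1.33 to 142713, and were taken here to log2 with no further scaling.

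Of 45101 probe sets, 34958 are annotated to 1 gene, 932 to several and 9211 to none named here. The study kept probe sets by present calls, not used here. An equal number, 25617, was kept by the third-highest intensity of the 8 samples (at least 8.82). The test of HF against NC was limma 3.58.1 (lmFit, eBayes) under R 4.3.3, in place of the SAM program of the methods, which was not run. P-values were adjusted over all retained probe sets by the Benjamini-Hochberg method. Means and SDs are of linear intensities and fold changes are of mean log2 values. Since the samples are separate pools of mice, p-values set the difference between diets against the spread between pools. For that spread limma also draws on all other retained probe sets. For exact permutation tests, all 70 ways to split the 8 samples were enumerated. The fit was tested on simulated data. The number of arrays limits the precision.

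Named genes are all the receptors, of each list up to 3 genes by smallest p among those that passed, filled up by highest mean intensity, and the ligands Gcg, Gip, Sst, Vip and Adcyap1. Casr, Calcrl, Pcsk1, Gnai2, Irx1, Irx2, Prph, Nefl and Snap25 were named after their values were seen. So were Nefm, Th, Cdh19, Ppy, Ins2, Iapp and G6pc2. The receptors and lists were chosen with earlier results of these data known. Locations and promoters are from RefSeq (GRCm38.p6). Alternatives were other filters, scalings, priors, sample weights, the methods' t-test (named there for 2 groups in general, while SAM was the test of the arrays), thresholds, a floor on low values and leaving out each sample.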

Additional observations from a re-analysis of the deposited data

Results flagged for a closer look

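In 3 of 58 groups of 4 samples of 1 diet, 1 sample lay far from the other three, and chance alone marks about 1 in 20 such groups. Glp1r was low in HF 22, at 1389, with the next HF sample at 1773. Gcg was high in HF 21, at 88300, with the next at 82810. Ramp3 was low in HF 23, at 205.9, with the next at 266.5.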

How the results depend on the processing

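No paired analysis was possible because the HF and NC samples share no replicate number. None of the receptor probe sets was called higher under any alternative, and 1, Adcyap1r1 1429022_at, was called lower under 2 (the methods' t-test, which they name in general and not for the arrays, at its raw p, log2 fold change -1.47, and leaving out NC 5). Without single samples its log2 fold change lay between -1.85 and -1.09 and the number of receptors called lower between 0 and 1. Scaling to beta cell markers moved the median of all probe sets to -0.06 and turned Gipr to -0.048, Chrm3 to -0.031 and Gcg to -0.070. Gcg was -0.016 and Gnas 0.0015 after quantile normalization. Leaving out single samples gave -0.062 to 0.087 for Gipr, -0.15 to 0.13 for Chrm3, -0.034 to 0.017 for Vipr1 1455555_at, -0.016 to 0.018 for Gcg and -0.15 to 0.0057 for Grk3. Probe sets higher in HF numbered 85 with no filter, 332 and 59 with the methods' t-test at raw and adjusted p, 520 with no fold limit, 47 at 2-fold and 93 to 158 without single samples. Those lower numbered 450 with that test after adjustment, 432 at 2-fold and 543 to 759 without single samples. Of called probe sets 17.4% were higher as reported, 9.95% after beta cell scaling and 33% with no fold limit. Of the related list genes, 2 were higher with no fold limit and 0 to 1 without single samples, and 3 were lower with the methods' t-test after adjustment, 4 at 2-fold and 5 to 8 without single samples. Calls of Cnr1 and Ache were lost with no filter, and those of Sstr2, Vip, Cnr1, Ache and Ramp3 with the methods' t-test after adjustment. Chrm3, Vipr1 1423004_at and Adcyap1r1 1429022_at were not kept by the stricter filter. The cause of these changes was not tested.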
